A study of Drosophila melanogaster with 2 samples.

Results

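Of the 3015 ChIP-seq peaks of the CG5953 protein on the chromosome arms of fruit fly embryos, 410 lay between genes and away from promoters (13.6%, exact 95% interval 12.4 to 14.9%). They were chosen by position alone: the summit of the peak, its point of highest signal, lay outside every annotated gene and more than 500 bp from every annotated transcription start site (TSS), on the Ensembl BDGP6 annotation with pseudogenes and transposable elements left out. No level of signal entered the choice beyond the threshold that all 3015 peaks had passed. The other peaks were 1365 within 500 bp of a TSS (promoter peaks), 1078 in introns and 162 in exons.

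The chromatin came from whole Drosophila melanogaster embryos aged 0 to 24 h of a strain carrying CG5953 fused to enhanced green fluorescent protein (eGFP). Chromatin bound by the fusion was recovered with an antibody against GFP and sequenced (ChIP-seq), in 2 biological replicates that form the only group. There was no second genotype, age or treatment, and no control library was used here, so no comparison between conditions was possible and no test was run. The labels give an insertion that targets CG5953 but not the promoter that drives the fusion, and both replicates came from 1 strain. Whole embryos over a full day of development hold all their tissues at once, so a peak cannot be placed in a tissue, and sonicated fragments of 200 to 800 bp limit how finely a summit is placed.

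In the compact fly genome, DNA between genes holds enhancers, which act on a promoter from a distance, together with insulators and boundary elements, which separate neighbouring domains. Polycomb response elements, from which Polycomb group proteins keep developmental genes silent, also lie there. CG5953 has no named function in the annotation, and its sites between genes are therefore described here by their sequence, their neighbours and their spacing.

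Sequences under strong peaks are shown first, to give the DNA at sites between genes with the highest signal. They are those ranked 2 to 6 by signal, and the strongest peak, between Su(z)2 and CG13323, is described further on without its sequence. Each line gives the summit with 50 bases on either side, from the Release 6 genome (dm6 coordinates). Capitals mark any match, on either strand, to 5 words described further on, which are TCAGTGCA, the palindrome GGCGCC, the core GTGGCGC of fly CTCF sites, the core GCATACTTT of the Su(Hw) insulator motif, and the long GA repeat GAGAGAG.
Between lncRNA:CR45641 and lncRNA:CR45643, chr3R:16222450-16222550, plus strand: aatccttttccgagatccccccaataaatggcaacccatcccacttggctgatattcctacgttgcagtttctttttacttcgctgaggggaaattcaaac
Between COX7AL2 and CG31668, chr2L:2202363-2202463, plus strand: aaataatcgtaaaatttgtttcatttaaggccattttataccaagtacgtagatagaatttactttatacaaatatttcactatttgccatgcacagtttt
Between C15 and sp3, chr3R:21520298-21520398, plus strand: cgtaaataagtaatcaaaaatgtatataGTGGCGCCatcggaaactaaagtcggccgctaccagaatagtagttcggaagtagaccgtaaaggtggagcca
Upstream of jp, chr2L:9567468-9567568, plus strand: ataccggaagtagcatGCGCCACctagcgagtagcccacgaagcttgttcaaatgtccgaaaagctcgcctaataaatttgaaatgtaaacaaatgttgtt
Upstream of RasGAP1, chr3L:9855914-9856014, plus strand: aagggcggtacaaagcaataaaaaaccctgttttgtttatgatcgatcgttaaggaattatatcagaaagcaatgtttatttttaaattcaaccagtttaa
Of these 5 sequences, those upstream of sp3 and upstream of jp held GTGGCGC (in the sp3 sequence it overlaps GGCGCC), and the other 3 held none of the 5 words. The peak between lncRNA:CR45641 and lncRNA:CR45643 had a signal of 718, with 376 in replicate 1 and 356 in replicate 2. The peak between COX7AL2 (a cytochrome c oxidase subunit gene) and CG31668 had 530 (295 and 240 in replicates 1 and 2). The peak between C15, which encodes a homeodomain protein of the distal leg, and sp3 had 522 (283 and 255), and lay 580 bp upstream of the sp3 TSS. The peaks 768 bp upstream of jp, the junctophilin gene, and 679 bp upstream of RasGAP1, a brake on Ras signalling, had 422 (226 and 195) and 336 (219 and 114).

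A word of 8 bases, TCAGTGCA, was found near summits after words of 6 bases at places 9, 12 and 18 of their ranking had been joined. Of its holders 6 are shown, among the 8 with the highest signal, along the strand on which the word reads TCAGTGCA, as 151 bases with the summit in the middle, since the word's place relative to the summit is the point. Left out are the strongest holder, beside 18w, and the peak beside ems, whose word lay too far from the summit for these lines. The last 3 lines were added after their values were seen.
Beside lncRNA:CR44723, chr3L:11325794-11325944, minus strand: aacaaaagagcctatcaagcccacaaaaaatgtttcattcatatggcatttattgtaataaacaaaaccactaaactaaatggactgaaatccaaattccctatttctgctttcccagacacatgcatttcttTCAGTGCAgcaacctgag
Upstream of aop, chr2L:2180154-2180304, minus strand: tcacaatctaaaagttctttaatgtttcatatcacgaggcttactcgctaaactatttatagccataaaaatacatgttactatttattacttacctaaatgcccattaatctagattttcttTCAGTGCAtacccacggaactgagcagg
Upstream of snsl, chr2L:4908038-4908188, minus strand: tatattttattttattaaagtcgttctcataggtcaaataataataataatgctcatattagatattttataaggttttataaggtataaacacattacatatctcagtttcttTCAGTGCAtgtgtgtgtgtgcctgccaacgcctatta
Beside lncRNA:CR45937, chr3L:18235975-18236125, plus strand: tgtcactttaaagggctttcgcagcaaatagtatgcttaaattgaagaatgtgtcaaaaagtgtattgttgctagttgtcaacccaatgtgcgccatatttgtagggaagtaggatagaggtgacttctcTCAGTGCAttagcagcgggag
Between lncRNA:CR45737 and sty, chr3L:3394572-3394722, minus strand: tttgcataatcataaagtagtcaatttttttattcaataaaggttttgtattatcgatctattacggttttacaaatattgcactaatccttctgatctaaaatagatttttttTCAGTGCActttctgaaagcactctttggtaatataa
Upstream of E(spl)malpha-BFM, chr3R:26009005-26009155, plus strand: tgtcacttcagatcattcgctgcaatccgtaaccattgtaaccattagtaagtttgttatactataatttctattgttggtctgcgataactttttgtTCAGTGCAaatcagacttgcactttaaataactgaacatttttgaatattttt
In these 6 lines the word stood after the middle base. At the strongest holder, the peak beside 18w with a signal of 195, the middle of the nearer copy lay at -11 bp, before the summit. In the lines shown the bases just before the word were mostly T or C. The signals of these 6 peaks ran between 118 and 166, and all 6 were in both replicates' own lists. Among their neighbours, aop encodes an ETS repressor of receptor tyrosine kinase signalling, sty encodes the inhibitor Sprouty, and E(spl)malpha-BFM is a Notch target.

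TCAGTGCA stood within 100 bp of 32 of the 410 summits (7.80%, exact interval 5.40 to 10.8%). The same window held it at 43 of 1078 intron peaks (3.99%, 2.90 to 5.34%), at 30 of 1365 promoter peaks (2.20%, 1.49 to 3.12%) and at 0.849% of 184887 windows of 201 bp that met the rule and lay over 1000 bp from any thresholded peak. A closer reference was the 28042 ranked peaks that met the rule, missed the threshold and lay equally far from thresholded peaks, of which 1.27% (1.14 to 1.40%) held the word. These ranked peaks were richer in G and C, with a median of 45.8% in the 201 bp, against 38.3% at the intergenic peaks and 41.3% in the windows. Over all arms together, the intervals of the intergenic peaks and of each other set did not overlap, though the intron interval ended just under where that of the intergenic peaks began. On the arms used to rank words, 2L, 2R and X, the share was 6.09% (12 of 197, 3.19 to 10.4%). Of intron peaks there 4.85% held the word (3.29 to 6.85%), an interval that overlapped it, and of windows 0.837%. On 3L, 3R and 4 the share was 9.39% (20 of 213, 5.83 to 14.1%), against 2.83% of intron peaks (1.52 to 4.79%) and 0.948% of windows. The share of intergenic peaks with the word was 9.34% in replicate 1's own list and 7.0% in replicate 2's. Intervals cover counting error only, and the word was chosen on the peaks of the ranking arms, so its share there is not independent of the choice. The shares of its 6-base parts on 3L, 3R and 4 stood beside their ranks when they were joined. The share on those arms is therefore not a held-out check either.

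The word was not confined to strong peaks. Among the 102 strongest intergenic peaks 8 held it, and among the 102 weakest 7 did. The holders had a median signal of 72.9, lay a median 4490 bp from a TSS, and 14 of the 32 were on 3L while 1 was on the X chromosome. Beside the holders named above, the word stood near the peaks between ems (a head gap gene) and Art9, between pyr and ths (a pair of fibroblast growth factor ligands), beside hth (a homeodomain cofactor of Hox proteins), beside Dr (a homeodomain gene of dorsoventral neural columns) and beside dally (a heparan sulfate proteoglycan), each named after its values were seen. All signals of the holders lay between 55.7 and 195.

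The side of the summit on which the word stood was alike in the 3 classes of peak. Read along the word, its middle lay after the summit in 30 of 35 occurrences within 100 bp of an intergenic summit (85.7%, 69.7 to 95.2%), with a median of 43.0 bp and quartiles of 21.5 and 61.5 bp. It did so in 45 of 48 occurrences at intron peaks (median 66.5 bp) and in 26 of 30 at promoter peaks (median 58.0 bp). Neighbouring summits can share 1 copy of the word, as the overlapping pair between pyr and ths did. That copy lay 75 bp after 1 summit and 126 bp before the other, so it entered the counts within 100 bp once. Just before the word, T stood at base 4, 5 and 6 before it in 29, 30 and 28 of 34 copies at the intergenic peaks, against 51.1, 53.4 and 53.0% of 1735 copies elsewhere between genes. All 3 of these bases were T in 23 of the 34 copies (67.6%, 49.5 to 82.6%) and in 27.6% of copies elsewhere (25.5 to 29.8%). Of the 10 bases profiled before the word, these 3 were the ones most often T at the same 34 copies. The shares for the 3 T, here and in the next sentence, are thus not independent of the choice of bases. Of the copies between genes that had these 3 T, 4.58% lay at an intergenic peak (23 of 502), against 0.868% of copies without them (11 of 1267). Most copies of the word therefore lay at no intergenic peak. In lower-case (repeat-masked) letters of the assembly were 19 of the 34 copies (55.9%, 37.9 to 72.8%), against 26.1% of copies elsewhere (24.1 to 28.2%). None of the 34 lay in an annotated transposable element.

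**Figure D1:**
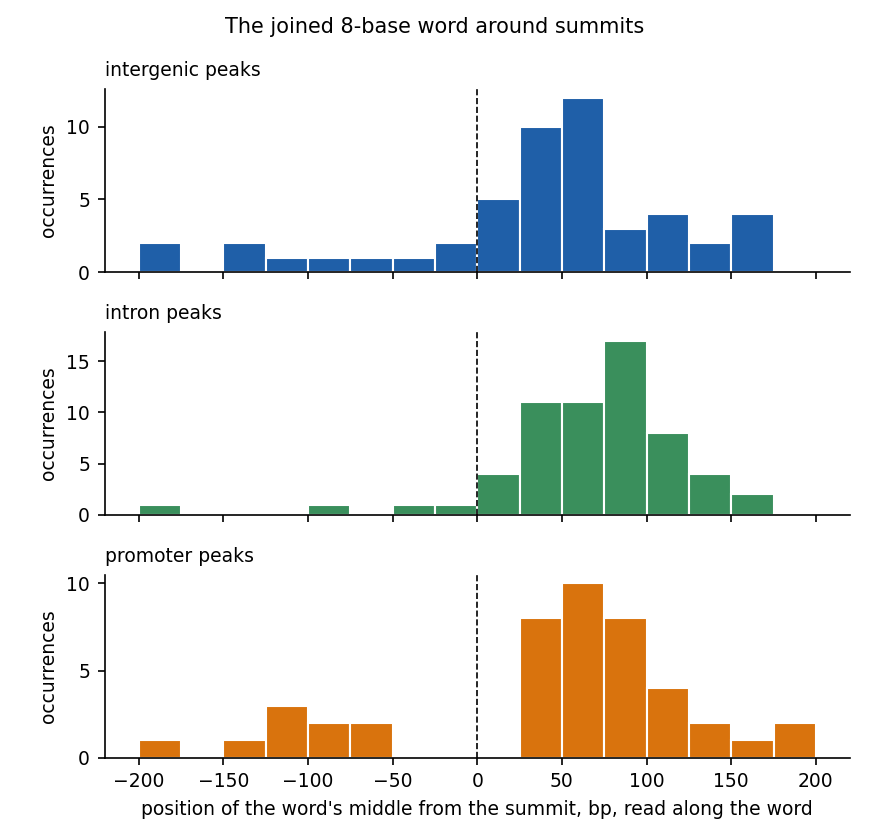
Position of TCAGTGCA around summits, as the number of occurrences per 25 bp, for intergenic, intron and promoter peaks; the x axis is the distance of the word's middle from the summit in bp, read along the word, and the dashed line marks the summit. In all 3 classes most occurrences lay after the summit, with medians of 43.0 bp for intergenic, 66.5 bp for intron and 58.0 bp for promoter peaks over the occurrences within 100 bp.

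GTGGCGC was looked for after it had been seen in strong peaks, and 2 further strong holders within 50 bp of the summit are shown because the word stood in different places relative to their middle base.
Between Cad89D and Gr89a, chr3R:16497532-16497632, plus strand: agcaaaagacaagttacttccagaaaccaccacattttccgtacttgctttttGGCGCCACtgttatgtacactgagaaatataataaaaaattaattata
Between CG31960 and bark, chr2L:3786400-3786500, plus strand: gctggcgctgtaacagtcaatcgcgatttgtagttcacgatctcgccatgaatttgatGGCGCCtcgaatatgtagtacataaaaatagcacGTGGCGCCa
Within 100 bp, 23 of the 410 intergenic peaks held GTGGCGC on either strand (5.61%, 3.59 to 8.30%), against 2.04% of intron peaks (1.28 to 3.07%), 2.64% of promoter peaks (1.85 to 3.63%), 2.54% of ranked peaks that missed the threshold and 1.64% of windows. The strong peaks that prompted the search are among the 23, so this share is not independent of the choice. In the replicates' own lists the share was 3.89% in replicate 1 and 8.50% in replicate 2, which differ by more than 1.5 times. Another short CTCF core in the list of 28 motifs, AGGGGGC, was in 9 intergenic peaks (2.20%, 1.01 to 4.13%), against 2.41% of intron peaks, 1.47% of promoter peaks, 2.96% of ranked peaks that missed and 1.56% of windows. GGCGCC, the first of the leading words of 6 bases, overlaps GTGGCGC wherever a C follows it. It was held by 24 intergenic peaks (5.85%, 3.79 to 8.58%), against 3.99% of intron peaks, 4.69% of promoter peaks, 3.52% of ranked peaks that missed and 2.30% of windows.

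The core of the Su(Hw) motif, the binding sequence of a zinc finger insulator protein, was in the list of 28 searched motifs and was held by few peaks. Of its holders, 3 with the core within 50 bp of the summit are shown in order of signal, to place the match.
Between CG11349 and CG7465, chr3L:4475062-4475162, plus strand: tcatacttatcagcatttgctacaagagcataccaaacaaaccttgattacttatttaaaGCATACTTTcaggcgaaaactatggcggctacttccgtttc
Between osp and CG15282, chr2L:14706392-14706492, plus strand: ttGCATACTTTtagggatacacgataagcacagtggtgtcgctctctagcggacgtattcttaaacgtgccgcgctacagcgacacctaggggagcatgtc
Between CG17570 and CG12617, chr2L:20287401-20287501, plus strand: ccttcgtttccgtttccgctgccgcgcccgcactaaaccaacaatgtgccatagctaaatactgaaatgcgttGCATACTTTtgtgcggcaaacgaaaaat
Of the 410 intergenic peaks 7 held GCATACTTT within 100 bp (1.71%, 0.689 to 3.49%), against 0.464% of intron peaks (0.151 to 1.08%), 0.586% of promoter peaks (0.253 to 1.15%), 0.692% of ranked peaks that missed and 0.548% of windows. In the replicates' own lists the share was 2.33% in replicate 1 and 3.5% in replicate 2. The strongest holder, with a signal of 201 (119 in replicate 1 and 81.9 in replicate 2), lay in the gap between Glut3 and lncRNA:CR45750, for which abd-A, a Hox gene, was the next protein-coding gene. The long GA repeat GAGAGAG, which GAGA factor binds, was in 20 intergenic peaks (4.88%, 3.0 to 7.43%), against 4.64% of intron peaks, 6.15% of promoter peaks, 2.28% of ranked peaks that missed (2.11 to 2.46%) and 2.20% of windows. Its 3 strongest holders were the peak beside CG12643 with a signal of 255, the peak between lncRNA:CR45695 and chinmo with 150, and the peak beside scyl with 124. The Twist E-box CATATG was in 8.54% (6.02 to 11.7%), against 8.72% of intron peaks, 6.01% of promoter peaks, 5.58% of ranked peaks that missed (5.32 to 5.86%) and 5.62% of windows. Its strongest holders were the peaks beside RasGAP1 (336), CG7560 (329) and CG43401 (246).

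Of the promoter motifs searched, those of DREF, M1BP and BEAF-32 were less frequent at intergenic than at promoter peaks, with intervals that did not overlap. DREF sites (TATCGATA) were in 2 of the 410 peaks (0.488%, 0.0591 to 1.75%), against 4.76% of promoter peaks (3.69 to 6.03%), 0.186% of intron peaks and 0.472% of windows. The M1BP motif GGTCACAC was in 3 (0.732%, 0.151 to 2.12%), against 3.15% of promoter peaks (2.29 to 4.22%), 0.742% of intron peaks and 0.292% of windows. BEAF-32 sites (CGATA) were in 19.5% (15.8 to 23.7%), against 30.3% of promoter peaks (27.9 to 32.8%) and 20.3% of windows. The TATA box TATAAA was in 24.9% (20.8 to 29.4%), against 30.3% of intron peaks (27.6 to 33.2%), 31.5% of promoter peaks (29.04 to 34.04%), 15.9% of ranked peaks that missed and 23.1% of windows. Stat sites (TTCNNNGAA) were in 3.17% (1.70 to 5.36%), against 6.49% of intron peaks (5.10 to 8.13%) and 6.19% of windows, and in 5.06% of replicate 1's own list and 3.0% of replicate 2's. The pioneer factor Zelda's CAGGTAG was in 1.22% (0.397 to 2.82%), against 0.893% of windows, and the Pho site GCCATNTT, by which Polycomb group proteins are recruited, in 4.39% (2.62 to 6.85%), against 4.47% of windows and 5.45% of ranked peaks that missed. A match to any of these letters describes the window and is not a shown binding site.

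**Figure D2:**
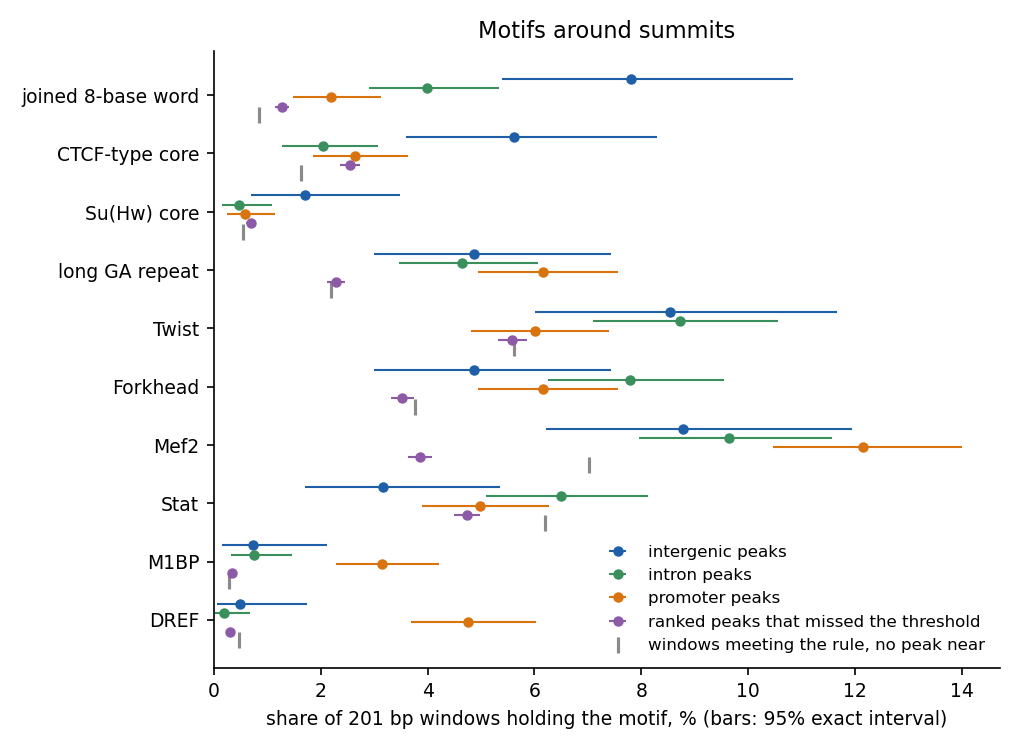
Share of 201 bp windows around the summit that held each of 10 motifs, on the x axis in percent, for intergenic, intron and promoter peaks, for ranked peaks between genes that missed the threshold, and for windows that met the rule (tick); bars are exact 95% intervals of counting error. Intergenic peaks lay highest for TCAGTGCA, at 7.80%, and for GTGGCGC, at 5.61%, both words chosen on these peaks. They also lay highest for the Su(Hw) core, at 1.71%, with an interval that overlapped those of the other peaks. DREF (0.488%) and M1BP (0.732%) lay below the promoter peaks (4.76 and 3.15%).

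The 10 leading words of 6 bases within 50 bp of summits on 2L, 2R and X did not all have a similar share on 3L, 3R and 4. GGCGCC was in 5.08% of intergenic peaks on the ranking arms and in 4.23% on the others, against 1.13% of windows there. AGTGCA, a part of TCAGTGCA, was in 12.7% on both groups of arms, against 6.12% of windows, and AAACTA was in 15.2% on the ranking arms and 16.4% on the others, against 7.91% of windows. By contrast ACCTAT was in 7.61% on the ranking arms and in 2.82% on the others, against 2.50% of windows, and TAGGCA in 7.61 and 2.82%, against 2.92% of windows. The remaining 5 were between those cases, such as ATGCAC with 11.7% on the ranking arms and 6.10% on the others, against 4.81% of windows. CACTGA and CAGTGC, the other parts of the joined word, came at places 12 and 18.

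Repeats and copies were few among the intergenic peaks. The 201 bp around the summit were mostly in lower-case letters of the assembly at 8 of the 410 (1.95%), against 3.02% of ranked peaks that missed the threshold and 18.9% of windows. No peak had a second copy elsewhere on the arms at 90% identity or more over at least 80% of the window. Under 3 summits lay an annotated transposable element, 1 of them 725 bp upstream of ed (an immunoglobulin family adhesion gene) with a signal of 201.

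The signals of the intergenic peaks ranged from 2.82 to 827 with a median of 76.8, against medians of 82.0 for intron and 88.3 for promoter peaks. The unit of the signal is not stated in the files. Replicate 1 had a median of 39.9 and replicate 2 of 37.1 at the intergenic peaks, and the replicates differed by a median of 1.25-fold over the 408 peaks with a signal in both, with the higher value in replicate 1 at 237. Across these peaks, which are regions of the same libraries and not replicates, Spearman's correlation of the replicates was 0.544, against 0.614 over intron and 0.674 over promoter peaks. In both replicates' own thresholded lists were 139 of the 410 (33.9%, 29.3 to 38.7%), while 39.2% of all conservative peaks were. The same share was 38.0% for intron peaks (35.1 to 41.0%) and 44.0% for promoter peaks (41.3 to 46.6%). In neither own list were 150 of the intergenic peaks (36.6%, 31.9 to 41.5%), an interval that includes the 32.6% of all conservative peaks. The same share was 33.4% for intron, 27.1% for promoter and 64.2% for exon peaks. Of ranked peaks between genes and away from promoters 1.39% were in the conservative set (1.26 to 1.53%), against 2.15% of all ranked peaks, 2.10% in introns and 6.03% at promoters.

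**Figure D3:**
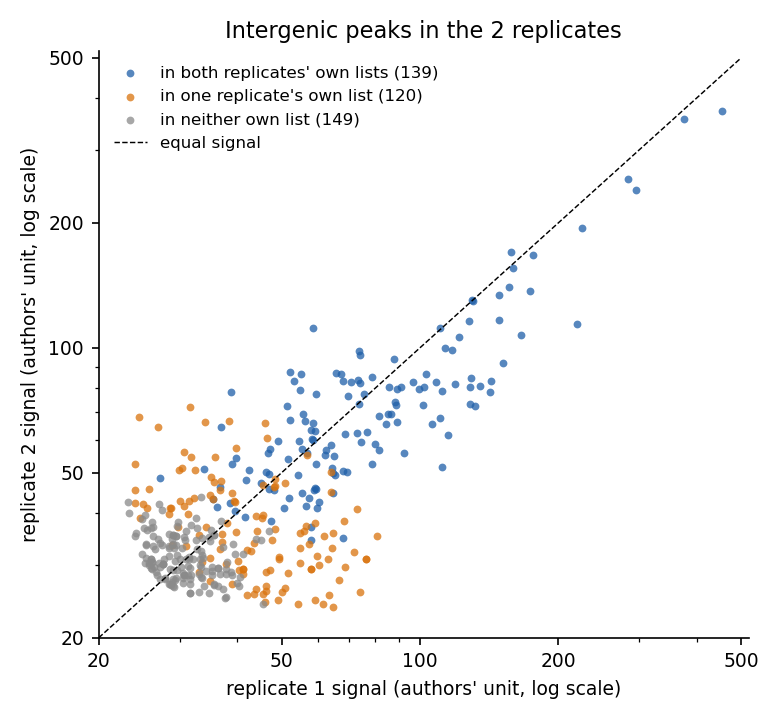
Signal of each of 408 intergenic peaks in replicate 1 (x) and replicate 2 (y), in the authors' unit on log axes, coloured by the replicates' own lists that held it; the dashed line marks equal signal. Peaks in both own lists (139) reach from about the middle of the cloud to 453 in replicate 1 and 373 in replicate 2, and peaks in neither lie at the low end.

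The weakest intergenic peaks lay beside stronger ones. A signal under 20 was seen at 10 intergenic peaks (2.44%, 1.18 to 4.44%), a share near the 2.65% of all conservative peaks. It was 3.43% for intron and 2.12% for promoter peaks. The 10 ran from 2.82 to 14.5, and all 10 had a stronger summit within 300 bp. Examples are the peak with 2.82 in the gap between Wnt4 and wg (both Wnt ligands), 226 bp from one with 67.0, and the peak with 6.07 between bap (a homeodomain gene of the visceral mesoderm) and Ugt49B2, 203 bp from one with 66.1. Both peaks of such a pair can be given the values of 1 replicate peak that overlaps them.

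The strongest peak between genes lay in the gap of 36783 bp between Su(z)2 and CG13323, at chr2R:13035231-13035441 (dm6), with a signal of 827, 453 in replicate 1 and 373 in replicate 2. Its nearest TSS, 11907 bp away, was that of CG13323, and Su(z)2 ended farther off, at chr2R:13007911. Su(z)2 encodes a Polycomb group protein, a relative of the neighbouring Psc, which is a core subunit of Polycomb repressive complex 1. The same gap held peaks with signals of 75.3 and 64.8, and the gap between CG13321 and Psc held peaks with 172 and 122. On the X chromosome, the gap between ph-d and ph-p, the paired genes of another subunit of that complex, held a peak with 136, 777 bp upstream of the ph-d TSS. These were all the intergenic peaks flanked by genes of the list of 24 chromatin and insulator genes (23 found): 6 of 410 (1.46%, 0.539 to 3.16%), against 0.164% of the bases that met the rule. A listed gene had the nearest TSS at 3 of the 410 (0.732%, 0.151 to 2.12%), and the strongest peak was not among these 3. The same was so for 0.0585% of bases and 0.0713% of ranked peaks that missed the threshold. The peaks around Psc and Su(z)2 share 1 locus and are not independent sites.

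The other strong peaks stood beside genes of varied function. All 20 strongest intergenic peaks, with signals of 222 or more, were in both replicates' own lists, 14 lay upstream of the nearest TSS, and 4 had a long noncoding RNA gene nearest. The peak downstream of CycB, the mitotic cyclin B gene, had 321 (173 in replicate 1 and 137 in replicate 2), and the peak 3336 bp upstream of foxo, the insulin-regulated forkhead gene, had 312 (159 and 155). On the X chromosome the peaks beside lncRNA:CR42794 and CG12643 had 285 (156 and 140) and 255 (130 and 129). The peak between dpr17 and CG4702 had 263 (148 and 117), and the one beside lncRNA:CR43883 had 263 (149 and 134). The peak beside CG43401 had 246 (151 and 92.1), the one between Sol1 and Cyp9f2 had 234 (128 and 116), and the one 504 bp upstream of CG10479 had 228 (143 and 83.3). The peak between slp1 and slp2, the forkhead segmentation genes sloppy paired, had 222 (117 and 99.0). Among the 20 strongest, replicate 1 was the higher at all but 2, both in the CG7560 gap described below.

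One peak lay on the upstream side of the gene of the tagged protein itself, and its sequence is given because that gene carries the tag's target.
On the upstream side of CG5953, chr2L:16535920-16536020, plus strand: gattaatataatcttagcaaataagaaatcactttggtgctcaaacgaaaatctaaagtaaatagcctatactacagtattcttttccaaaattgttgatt
It stood in the gap between lncRNA:CR45355 and CG31816, with CG5953 and CG31816 as the flanking protein-coding genes, and its signal was 213, with 135 in replicate 1 and 81.0 in replicate 2. CG5953 spans chr2L:16508078-16532877 on the minus strand. Whether the tagged insertion changes the chromatin there was not tested.

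Genes that pattern the embryo were next to some of the intergenic peaks, and the counts were small. Of the list of 32 segmentation genes (30 found), 8 peaks had a member's TSS as the nearest (1.95%, 0.846 to 3.81%), against 0.831% of bases that met the rule and 1.35% of ranked peaks that missed. Beside slp1 and slp2 (222), the strongest were near ems (125), croc (111), a forkhead gene, and wg (67.0). The 8 include both close neighbours beside wg (67.0 and 2.82), which the interval counts as separate sites. Of 23 dorsoventral and mesoderm genes (22 found), 5 peaks were nearest (1.22%, 0.397 to 2.82%), against 0.239% of bases and 0.328% of missed ranked peaks. The 5 include both close neighbours beside bap (66.1 and 6.07), so they mark fewer than 5 separate sites, which the interval does not allow for. The strongest beside any of the list were near how (107), Dr (67.2) and bap (66.1), and in a gap with dpp, the BMP ligand gene, as the next protein-coding gene (64.7). Of 40 transcription factors of limbs and organs, 7 peaks were nearest (1.71%, 0.689 to 3.49%), against 0.809% of bases and 1.36% of missed ranked peaks, and 16 were flanked (3.90%, 2.25 to 6.26%), against 1.67% of bases. Their strongest was the peak between C15 and sp3 (522), before those beside mid (157) and Doc2 (140), both T-box genes, and between Doc1 and Argk2 (99.3). Several of the flanked peaks shared a locus, such as those around Doc1 and Doc2 and the 3 in the vvl gap, and are not independent sites.

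Ligands and receptors were next to a similar number. Of 43 genes of signalling (40 found), 8 peaks were nearest (1.95%, 0.846 to 3.81%), against 0.723% of bases and 1.15% of missed ranked peaks. The strongest flanked by them were near 18w, a Toll family receptor gene (195), ptc, the Hedgehog receptor gene (126), upd1, a JAK/STAT ligand gene (105), and Ser, a Notch ligand gene (89.1). Among 38 neural genes (37 found), 1 peak was nearest (0.244%, 0.00617 to 1.35%), against 0.443% of bases, and 5 were flanked. Those with such a gene beside them or as the next protein-coding gene had signals of up to 161, near Optix (161), SoxN (159), toy (102) and Lim1 (82.6), all genes of neural or eye transcription factors. None of the 410 had a Hox or homeotic complex gene nearest (0 of 410, exact interval up to 0.896%), and 0.0922% of bases did. With noncoding genes skipped, abd-A and the pair Dfd and Scr each flanked 1 gap with a peak, at 201 and 102.

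Long noncoding RNA genes were frequent neighbours, at a share near that of the ranked peaks that missed the threshold. A long noncoding RNA gene had the nearest TSS at 122 of the 410 (29.8%, 25.4 to 34.4%), against 23.5% of bases that met the rule and 28.4% of missed ranked peaks. A tRNA gene was nearest at 11 (2.68%, 1.35 to 4.75%), against 0.837% of bases and 1.18% of missed ranked peaks, though 4 of these were in 1 gap beside tRNA:Ile-TAT-1-2. Genes of ribosomal proteins were nearest at none (0 of 410, exact interval up to 0.896%), against 0.444% of bases, and chemoreceptor genes at 3 (0.732%, 0.151 to 2.12%), against 1.27%. No snRNA or miRNA gene was nearest at any, against 0.0671 and 0.482% of bases.

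The intergenic peaks lay closer to genes than the space they were drawn from. The median distance to the nearest TSS was 2454 bp (quartiles 1260 and 5662 bp, range 503 to 36741 bp), against 4286 bp for the ranked peaks that missed and 6676 bp for all bases that met the rule, 39.32 Mb in all. Within 1000 bp of a TSS were 81 (19.8%, 16.0 to 23.9%), against 8.77% of missed ranked peaks and 7.20% of bases. Within 5000 bp were 70.7% (66.1 to 75.1%), against 55.8 and 42.0%. Beyond 40 kb there was none of the 410 but 18.2% of bases. The bases include masked repeats, unknown bases and the Y chromosome (6.56% of them). Whether a peak could be called at each base was not tested. They lay upstream of the nearest TSS in 60.5% (55.6 to 65.3%), against 57.5% of bases.

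**Figure D4:**
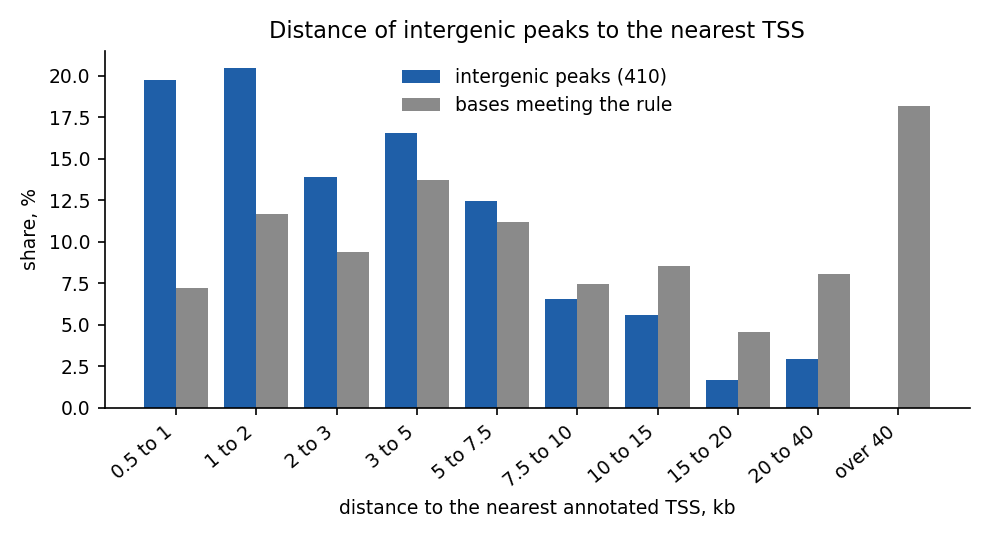
Share of the 410 intergenic peaks and of the bases meeting the rule, in percent, by distance to the nearest annotated TSS in kb; the first class starts at the limit of the rule. The peaks exceed the bases up to 7.5 kb and fall short of them beyond, with none over 40 kb, where 18.2% of the bases lie. The bases include masked repeats and the Y chromosome.

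The limit of 500 bp cut through a continuous range. The peaks just outside it were 503 bp from Thor (57.4), 504 bp from CG10479 (228) and 507 bp from CG9706 (87.6), and those just inside were 497 bp from CG17896 (223), 491 bp from l(3)neo38 (79.5) and 490 bp from CG6225 (121), and thus counted as promoter peaks. The 3 farthest lay 36741 bp from lncRNA:CR46075, 36631 bp from CG43245 and 33852 bp from vvl, a POU domain gene, with signals of 140, 94.4 and 84.4.

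The strands of the flanking genes were divergent, with a promoter at each end of the gap, at 119 peaks (29.0%, 24.7 to 33.7%), against 23.4% of missed ranked peaks and 19.2% of bases. With noncoding genes skipped the share was 35.4% (30.7 to 40.2%), against 22.2% of bases. Convergent flanks held 25.6% (21.5 to 30.1%), against 25.5% of missed ranked peaks and 25.2% of bases. The median signal was 74.9 in divergent, 79.4 in tandem and 76.7 in convergent gaps. The gene of the nearest TSS had a peak at its own promoter at 51 of the 410 (12.4%, 9.40 to 16.0%), against 4.12% of missed ranked peaks and 3.17% of bases. Those 51 had a median signal of 71.4 and the other 359 of 78.6.

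The X chromosome held 30 of the intergenic peaks (7.32%, 4.99 to 10.3%), but 13.7% of the bases that met the rule and 14.6% of the ranked peaks that missed. Of intron peaks 22.5% were on X (20.1 to 25.2%), and of promoter peaks 15.02%, whose shares of bases on X were not computed. In the replicates' own lists the X share of intergenic peaks was 7.78% in replicate 1 and 10.5% in replicate 2. Arm 3L held 129 (31.5%, 27.0 to 36.2%), against 23.2% of the bases, 22.8% of missed ranked peaks and 21.6% of all conservative peaks, and it did so in both own lists (33.1% in replicate 1 and 28.5% in replicate 2). This was 14.1 peaks per Mb that met the rule on 3L and 5.58 on X. The share of males and females among the embryos is not given in the labels, and its part in the X share was not tested.

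The 410 intergenic peaks lay in 295 of 5266 gaps, with 224 gaps holding 1 peak each and 7 gaps holding 4 or more, 37 peaks in all. In a gap with another were 45.4% (40.5 to 50.3%), and 36.6% lay within 5 kb of another. These shares depend on the number of peaks: within replicate 1's own list they were 31.9 and 24.9%, and within replicate 2's 26.0 and 20.5%. Upstream of chinmo, which encodes a BTB zinc finger protein of neuronal and stem cell identity, 2 adjacent gaps, 25.2 kb in all, held 10 peaks. The strongest of these, 18403 bp before the chinmo TSS, had 332 (176 in replicate 1 and 167 in replicate 2), followed by those at 7797 bp with 211 (129 and 84.5), at 1508 bp with 205 (142 and 78.4), at 12447 bp with 161 (112 and 51.7) and at 2418 bp with 150 (65.8 and 87.0). Those 5 were in both own lists, and the other 5, from 5.26 to 66.8, were not. The peaks at 23854 and 23601 bp, with 46.6 and 5.26, overlap the same replicate peaks.

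The gap between tRNA:Ile-TAT-1-2 and CG13898 held 7 peaks over 31295 bp, with the strongest at 277 (166 and 107 in replicates 1 and 2) and 4 of the 7 in both own lists. The gap of 75047 bp between NijA, the Ninjurin A adhesion gene, and CG43245 also held 7, all between 61.0 and 111, of which 1 was in both own lists. Between lncRNA:CR44363 and CG7560, 4 peaks stood within 1461 bp, the outer ones at 253 (130 in each replicate) and 329 (158 and 170), the inner ones at 94.8 and 81.5. The 4 beside lncRNA:CR44526 had hry, the hairy segmentation gene, as the next protein-coding gene on that side and reached 129. The 5 between lncRNA:CR44761 and Ppa, an F-box gene, were between 62.1 and 105.

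**Figure D5:**
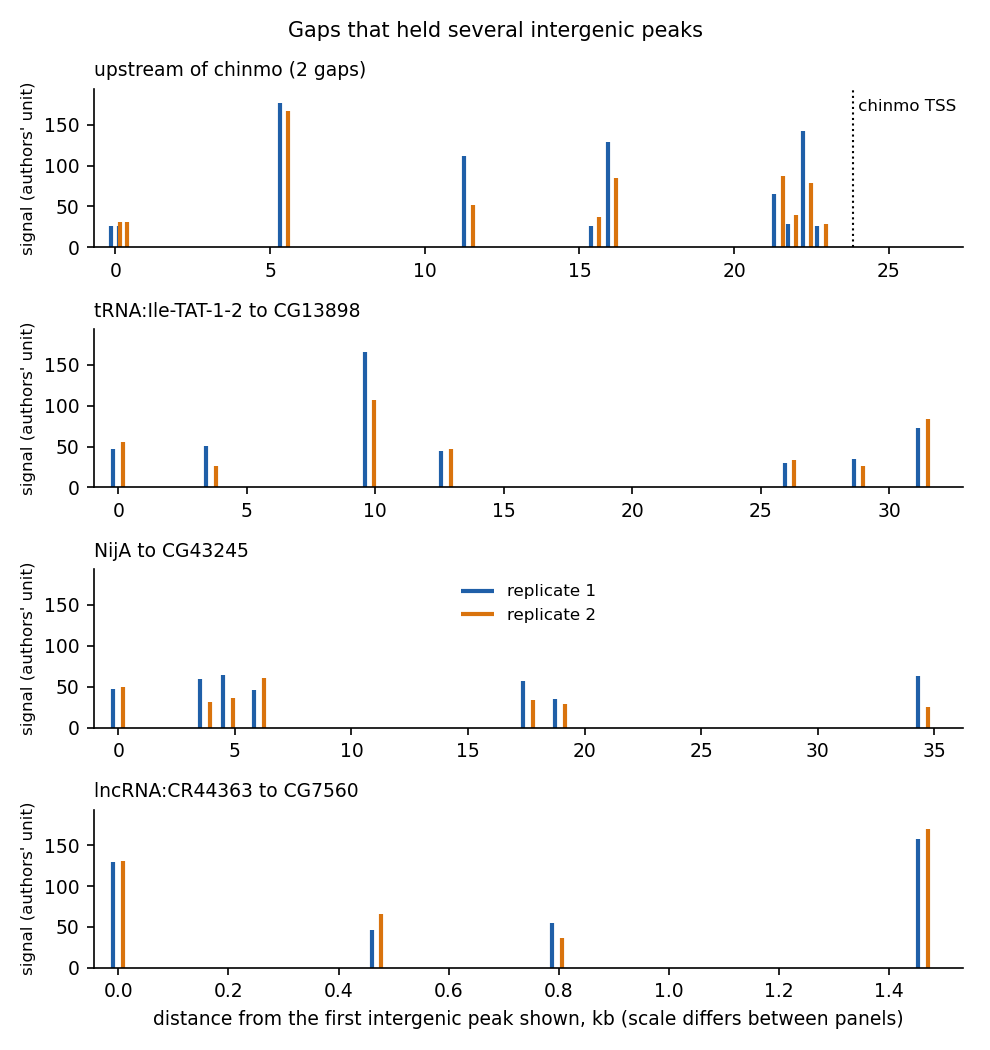
Signal of each intergenic peak in replicates 1 and 2 (authors' unit) in 4 panels, 1 of them joining the 2 gaps on either side of lncRNA:CR45695 and the others 1 gap each, with the distance from the first peak in kb, on a scale that differs between panels and with the replicates drawn side by side; the dotted line in the first panel is the chinmo TSS. The 10 peaks upstream of chinmo reach 176 in replicate 1, and the 7 between NijA and CG43245 reach 64.6.

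A longer run on 3L was noticed after the values were seen. From scyl, which encodes an inhibitor of TOR signalling, to CG6149 (chr3L:11256173-11434694, 178.5 kb), 23 intergenic peaks lay in 9 gaps, 17.8% of those on the arm. Their signals were between 5.68 and 329 with a median of 79.95, 8 were in both own lists, and the 4 between lncRNA:CR44363 and CG7560 were among them.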

How the data were processed

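Peak lists of 2 ChIP-seq libraries of CG5953-eGFP embryos were used, on dm6 per the labels. The authors' aligner and peak caller are not stated in the labels or headers. In each deposited list the authors gave a signal per peak of unstated unit. Lists were ranked and thresholded by the irreproducible discovery rate (IDR), with its −log10 in the deposited ranked lists, which was not used to choose peaks. The main list was the conservative set of both libraries. The depth is unknown, since the lists hold no reads.

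Summits (1-based) were placed on Ensembl release 115 and the Release 6 genome with Python 3.11.15, numpy 2.4.6, pandas 2.3.3 and scipy 1.17.1; plots used matplotlib 3.10.9. A total of 1 conservative peak on another sequence was left out. Replicate signals are those of the strongest overlapping ranked peak (1 bp or more). Shares have exact Clopper-Pearson 95% intervals, which cover counting error only. Windows met the rule and lay over 1000 bp from thresholded peaks. Words were ranked by their excess over windows. The rule was checked on planted summits and words. Named were the 20 strongest, the 3 on each side of the limit, the 3 farthest, gaps with 4 or more, and up to 4 per gene list and 3 per motif. The members, gene lists and motifs were chosen with earlier results of these data known. Alternatives were other TSS limits, peak sets, windows and flanks.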

Additional observations from a re-analysis of the deposited data

How the results depend on the processing

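The 20 quantities were recomputed under 14 settings, 140 values in all, of which 118 moved by less than their counting interval or by less than 1.5 times in the case of the number of peaks. The other 22 moved more. Each replicate's own list alone gave 200 to 257 intergenic peaks in place of 410, a median signal of 55.9 to 57.0 in place of 76.8, 26.0 to 31.9% in a gap with another, 20.5 to 24.9% within 5 kb of another, and 7.78 to 10.5% on X; fewer peaks leave fewer neighbours. A TSS limit of 1000 bp put the median distance at 3682 bp, as its construction requires. With protein-coding flanks alone, divergent gaps held 35.4%. With all genes, a long noncoding RNA gene stood on at least 1 flank of 48.5%, against 29.8% by the nearest TSS. A motif window of 50 bp held the long GA repeat at 1.95% and TCAGTGCA at 4.39% of the peaks, since a shorter window holds fewer words. No paired analysis was possible because the samples form 1 group. The depth of the libraries, and so the number of weak sites missed, is unknown.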

Other observations

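Noncoding neighbours and mobile elements gave values that belong to none of the comparisons. Both intergenic peaks with a snoRNA TSS nearest lay in the gap before Sf3b3, 200 bp apart, with signals of 61.8 and 14.1. Between the lncRNA genes CR45303 and CR45693, next to noc, 1 of 3 peaks (74.0) lay in an annotated transposable element. With pseudogenes and transposable elements counted as genes, 403 peaks met the rule.

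On the fourth chromosome, largely heterochromatic, 4 of the 8 conservative peaks lay between genes, against 13.6% on all arms, and 8 peaks are too few to compare. The chromosome held 0.976% of the intergenic peaks and 0.686% of the bases that met the rule. Among the 4 were the peak between fuss and toy with a signal of 102 and the peak beside lncRNA:CR43437 with 164. The Y chromosome, with 6.56% of the bases that met the rule, had none.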
